A study of Mus musculus with 20 samples.

Results

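A set of 10 genes of the BMP and TGF-β pathway was followed across the day in dermal lymphatic endothelial cells (LECs) of mouse ear skin: the ligand Tgfb1, the receptors Bmpr2, Acvrl1, Eng and Tgfbr2, the inhibitory Smads Smad6 and Smad7, and the target genes Id1, Id2 and Id3. They were picked as a pathway group, with earlier results of these data known, and found by gene symbol as 10 of the 24062 gene symbols in the count files, and all 10 had counts that passed the filter on low counts. The LECs were sorted as CD31+podoplanin+ cells from wild type C57BL/6 (C57BL/6N in the study's methods) male mice at postnatal day 56, at zeitgeber time (ZT) 1 and 7 in the light phase and ZT13 and ZT19 in the dark phase. Each time point had 5 replicates, 20 libraries in all, and each replicate pooled the ears of a pair of mice, so n counts pools and not animals. The question asked of each gene was whether its RNA differed with the time of day.

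Ligands of the TGF-β superfamily bring together type II and type I receptors on the cell surface, and the type I receptor then phosphorylates Smad proteins that enter the nucleus. In endothelium, ACVRL1 and the co-receptor endoglin carry the BMP branch to Smad1 and Smad5, whereas TGF-β itself binds TGFBR2, the type II receptor of the Smad2 and Smad3 branch. The Id genes are standard targets of the BMP branch, and Smad6 and Smad7 are induced by the pathway and shut it down.

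After adjustment, none of the 10 varied among the 4 time points and none had a 24-h rhythm (0 of 10 in each, edgeR, quasi-likelihood test, Benjamini-Hochberg adjustment over 19209 genes). At the same threshold, an adjusted p of 0.05, 81 genes, or 0.422% of those tested, differed among the 4 time points, and 6 genes, or 0.0312%, had a rhythm. At an unadjusted p under 0.05, 4 of the 10 (Bmpr2, Eng, Smad7 and Id3) differed among the time points, where 15.7% of all genes did, and 2 (Smad7 and Id3) had a rhythm, where 9.23% did. With DESeq2, run as an alternative, 1 of the 10, Id3, passed among the time points, beside 3.22% of all genes with an adjusted p, and 0 passed for a rhythm, beside 0.683%. The cosine amplitude of the 10 genes had a median of 0.37 on the log2 scale, against 0.52 over all genes tested.

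The libraries held between 4475111 and 42002363 reads on genes, and reads on genes made up 12.7% to 81.6% of those assigned to a gene or to none. In 5 libraries this share was over 60%: ZT7 replicate 2, ZT13 replicate 5 and ZT19 replicates 1, 2 and 5, while the others lay at or under 53.7%. The LEC markers Prox1, Lyve1 and Flt4 were present in all 20 libraries, with means of 2702, 16600 and 10400 normalized counts, and Ccl21a was listed at 0 in all of them. Of 14 keratinocyte markers, 6 passed the test among the 4 groups, and their summed level was 11300 to 31570 normalized counts at ZT13 and 92310 to 197100 at ZT19. Of 10 fibroblast markers 2 did, and their summed level was 6794 to 21410 at ZT1, above all libraries of ZT7 (966 to 4790), 866 to 10400 at ZT13 and 1378 to 17160 at ZT19. In the fibroblast score 4 libraries (ZT7 replicates 1 and 2, ZT13 replicate 2 and ZT19 replicate 4) stood apart with low levels of the list. Of the lists for LECs (8 tested of 9), blood endothelium (9), mural cells (8) and leukocytes (8), 0 markers differed. The summed LEC list had medians of 87020, 71550, 82740 and 70300 normalized counts at ZT1, ZT7, ZT13 and ZT19. Those of the summed keratinocyte list were 49410, 83720, 23530 and 148500. The counts do not tell which cells the RNA of a member came from. In sorted pools, fewer cells of a type and less RNA per cell cannot be told apart.

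Per length of exon, the Id genes and Tgfbr2 stood at the top. Id3, an inhibitor of basic helix-loop-helix transcription factors, had 1522 ± 738 normalized counts per kb (SD, n = 20), above 98.5% of the genes tested. Id1 followed with 1080 ± 638 and Tgfbr2 with 815 ± 224. Id2 had 584 ± 280 and Eng 320 ± 156 normalized counts per kb. Lower in the order came Acvrl1 (154 ± 59.2), Tgfb1 (114 ± 64.1), Bmpr2 (66.8 ± 39.7), Smad7 (46.1 ± 81.2) and Smad6 (35.8 ± 32.5). The order of the last 2 rested on 1 library: without ZT1 replicate 5 the mean of Smad7 was 28.5 and that of Smad6 37.0 per kb, and over all 20 libraries the mean log2 difference, Smad7 minus Smad6, was -0.61. By its mean, Smad6 lay near the middle of all genes, above 51.0% of them. Neighbours in this order overlapped: Id3 exceeded Id1 in 13 of 20 libraries, Id1 exceeded Tgfbr2 in 13, Acvrl1 exceeded Tgfb1 in 12 and Smad7 exceeded Smad6 in 10. The other steps, Tgfbr2 over Id2, Id2 over Eng, Eng over Acvrl1, Tgfb1 over Bmpr2 and Bmpr2 over Smad7, held in 16 or 17 of 20 libraries, though each mean log2 difference was smaller than its SD except for Eng over Acvrl1 (0.995 ± 0.97).

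**Figure D1:**
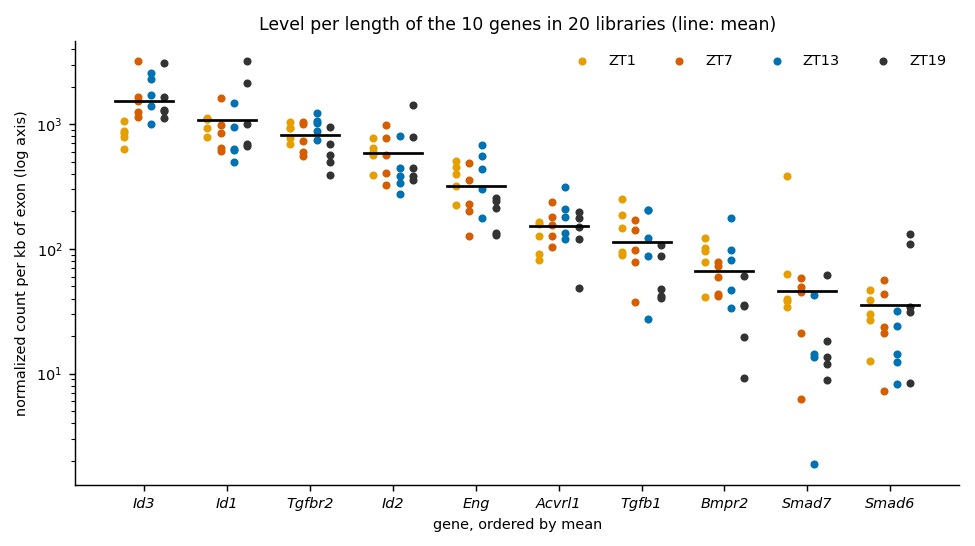
Normalized count per kb of exon (log axis) of each gene in the 20 libraries, coloured by time point, with the mean over all libraries as a line. Id3 had the highest mean, 1522, and Smad7 and Smad6 the lowest, 46.1 and 35.8 (28.5 and 37.0 without ZT1 replicate 5), and the 1 library in which Smad7 had a count of 0 (ZT13 replicate 5) has no point on the log axis.

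Tgfb1, the gene of the ligand TGF-β1, spans chr7:25687002-25705077 on the plus strand (GRCm38). At ZT1 its normalized counts, scaled to a common library size, were 1257, 478, 743, 949 and 448, and at ZT7 they were 188, 397, 717, 861 and 494. At ZT13 they were 1036, 138, 1039, 620.4 and 443, and at ZT19 205, 543, 446, 213 and 241. All 5 libraries of ZT19 stayed at or under 543 normalized counts, but each earlier time point had at least 1 library in that range, so the groups overlapped. ZT1 exceeded ZT19 by 1.23 ± 0.47 on the log2 scale (0.57 with an offset for transcript length, SE, edgeR's quasi-likelihood test, unadjusted p = 0.0136, Benjamini-Hochberg adjusted p = 0.130). Among the 4 time points the adjusted p was 0.384 by the same test and adjustment.

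Among the receptors, Bmpr2 and Eng were lowest at ZT19, and Acvrl1 and Tgfbr2 had smaller differences. Bmpr2, the type II receptor for BMPs, spans chr1:59763400-59879014 on the plus strand. Its normalized counts were 1812, 2184, 1418, 1743 and 745 at ZT1 and 1077, 783, 1409, 750.1 and 1321 at ZT7. They were 1771, 3201, 1470, 839 and 606 at ZT13 and 355, 166, 641, 1089 and 630.3 at ZT19. Only replicate 4 exceeded 641 at that time point, yet some libraries of ZT1, ZT7 and ZT13 also fell under its value of 1089. ZT1 exceeded ZT19 by 1.46 ± 0.44 (log2, SE, edgeR's quasi-likelihood test, Benjamini-Hochberg adjusted p = 0.0930), and ZT19 lay below ZT13 by nearly the same amount (-1.45 ± 0.44, adjusted p = 0.0911). Among the 4 time points the unadjusted p was 0.0110 and the adjusted p 0.224. Without ZT19 replicate 4 the fall from ZT1 to ZT19 passed (-1.82, adjusted p = 0.0302, beside 4.55% of all genes), and without ZT13 replicate 5 that from ZT13 to ZT19 did (-1.66, adjusted p = 0.0429, beside 4.30%). DESeq2 called both differences (adjusted p = 0.0123 and 0.00756), and the fit with keratinocyte and fibroblast scores as covariates the first (-2.10, adjusted p = 0.0370).

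Bmpr2 was low in the libraries with a high share of reads on genes. In the 5 libraries with a share over 60% it ranged from 166 to 783 normalized counts, with a median of 606, and in the other 15 from 641 to 3201, with a median of 1409. Over all 20 libraries, r of its log2 level with that share, as log2 odds, was -0.616 (rho = -0.477, permutation p = 0.00354 and 0.035, adjusted over 30 relations 0.0354 and 0.117). It was -0.523 once the 2 most distant libraries were left out, -0.416 within time points and -0.0286 among the 15. In the 5 libraries of ZT1 alone r was 0.886, and at the later time points it lay between -0.622 and -0.461. Of the 5 libraries 3 belong to ZT19 and none to ZT1. Without them, ZT1 exceeded ZT19 by 0.85 on the log2 scale, and with an offset for transcript length by 0.43, and the unadjusted p among the 4 time points was 0.164.

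Eng, which encodes the co-receptor endoglin, spans chr2:32646595-32682669 on the plus strand. Normalized counts were 1849, 911, 1626, 2038 and 1291 at ZT1 and 511, 919, 1957, 809.5 and 1433 at ZT7. At ZT13 they were 2740, 710.4, 2229, 1213 and 1754, and at ZT19 542, 1044, 976, 856 and 521. ZT19 had no library over 1044, and it overlapped with each of the other groups. Eng was higher at ZT13 than at ZT19 by 1.13 ± 0.38 (log2, SE, edgeR's quasi-likelihood test, unadjusted p = 0.00612, Benjamini-Hochberg adjusted p = 0.1065), and among the 4 time points the adjusted p was 0.2697. Without the 5 libraries with a high share on genes the difference was 0.85, and with scores of keratinocyte and fibroblast markers as covariates it was 1.90 and passed (adjusted p = 0.0499). DESeq2 also called it (adjusted p = 0.0233). Part of its exons, 61 bases, is shared with Fpgs on the other strand, and since the strand setting of the counting was not stated, the assignment of reads from there is uncertain.

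Eng and Tgfb1 moved together across libraries (their correlation is given with the others), and are shown here by the 250 bases before their start of transcription (chr2:32646345-32646594 and chr7:25686752-25687001, both on the plus strand, RefSeq, GRCm38.p6). A RefSeq promoter window was matched for 7 of the 10 genes. Capitals mark CAGAC, the core of the Smad-binding element, on either strand.
Eng: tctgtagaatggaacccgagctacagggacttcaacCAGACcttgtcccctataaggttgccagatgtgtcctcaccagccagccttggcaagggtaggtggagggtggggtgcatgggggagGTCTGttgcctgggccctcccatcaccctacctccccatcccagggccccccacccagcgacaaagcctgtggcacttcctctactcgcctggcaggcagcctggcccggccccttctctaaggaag
Tgfb1: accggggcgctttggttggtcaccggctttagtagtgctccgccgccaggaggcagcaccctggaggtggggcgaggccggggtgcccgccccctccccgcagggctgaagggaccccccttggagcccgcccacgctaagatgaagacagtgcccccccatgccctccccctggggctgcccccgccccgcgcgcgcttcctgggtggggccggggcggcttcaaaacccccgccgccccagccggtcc
Eng held CAGAC at 2 places, one on each strand, with first bases 214 and 127 bases before the start, and Tgfb1 did not hold it. CAGAC was found in 42.2% of all 32851 promoter windows of this length. Neither window held the E-box CACGTG (6.02% of all windows) or GGCGCC, a GC-rich motif of BMP Smads (9.59%), and the motifs do not overlap one another. G and C made up 62.4% of the Eng window and 75.2% of that of Tgfb1.

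Acvrl1, the gene of the endothelial type I receptor ALK1, lies at chr15:101128522-101145336 on the plus strand. In the order of the time points, its means were 531 ± 163, 687 ± 223, 818 ± 329 and 589.8 ± 245 normalized counts (SD, n = 5). The largest difference, ZT13 over ZT1, was 0.62 ± 0.36 on the log2 scale (SE, edgeR's quasi-likelihood test, Benjamini-Hochberg adjusted p = 0.9998), and 0.21 with the marker scores as covariates. With an offset for transcript length it was 1.20 (unadjusted p = 0.0271, adjusted p = 0.832, same test). An antisense gene, Gm16031, shares 127 exon bases with it.

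Tgfbr2, the type II receptor for TGF-β, at chr9:116084293-116175360 on the minus strand, was the steadiest of the 10, with a 3.16-fold range from the lowest to the highest library. From ZT1 to ZT19 the means were 7139 ± 1100, 6422 ± 1852, 8073 ± 1475 and 5069 ± 1787 normalized counts (SD, n = 5). ZT13 exceeded ZT19 by 0.67 ± 0.33 (log2, SE, edgeR's quasi-likelihood test, Benjamini-Hochberg adjusted p = 0.267), and DESeq2 called this difference (0.81, adjusted p = 0.0355). Across the 20 libraries its level followed how strongly longer genes were counted (r of 0.723 with the log2 change per doubling of transcript length, 0.832 within time points, given as a description). With an offset for transcript length the difference was 0.33. The levels of Bmpr2 and Tgfb1, whose differences also shrank with that offset, had an r of 0.00611 and -0.0548 with this measure (-0.147 and -0.185 within time points).

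The inhibitory Smads had the lowest levels and the widest spread within time points (SD of 1.10 for Smad6 and 1.87 for Smad7 on the log2 scale). Smad6, which blocks BMP signalling, lies at chr9:63953076-64022059 on the minus strand. Its normalized counts were 95.6, 126, 85.7, 150.1 and 40.7 at ZT1 and 181, 23.4, 67.7, 75.8 and 139 at ZT7. At ZT13 they were 77.0, 26.5, 39.7, 102 and 46.2, and at ZT19 426, 354, 110, 101 and 27.1. Replicates 1 and 2 of ZT19 were far above every other library, and replicate 5 of the same time point was the third lowest of all. The log2 difference between ZT19 and ZT13 was 1.80 ± 0.74 (SE, edgeR's quasi-likelihood test, unadjusted p = 0.0222, Benjamini-Hochberg adjusted p = 0.182), and 0.84 without the libraries with over 60% of reads on genes, to which both high replicates and 3 low libraries (ZT7 replicate 2, ZT13 replicate 5 and ZT19 replicate 5) belong.

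Smad7, the inhibitor of both branches, lies on chromosome 18 (chr18:75367529-75395935, plus strand). At ZT1 it had 178, 154, 283, 173 and 1719 normalized counts, and at ZT7 264, 28.6, 203, 96.5 and 222. At ZT13 it had 61.9, 8.48, 65.5, 192 and 0, and at ZT19 61.8, 53.9, 82.0, 281 and 40.3. The count of 0 came from ZT13 replicate 5, the deepest library, where it allows up to 7.14e-06% of the reads on genes (3 counts, counting error only). ZT1 replicate 5 stood far above every other library. The log2 difference between ZT1 and ZT13 was 2.94 ± 1.01 (SE, edgeR's quasi-likelihood test, unadjusted p = 0.00711, Benjamini-Hochberg adjusted p = 0.628), and the 24-h cosine had an amplitude of 1.51 with a peak at 1.84 h (unadjusted p = 0.00935, adjusted p = 0.439). Without ZT1 replicate 5 the difference was 1.60, and the unadjusted p rose from 0.0202 to 0.397 among the time points and to 0.233 for the rhythm. Its level was 0 to 61.8 in the 5 libraries with over 60% of reads on genes and 8.48 to 1719 in the other 15. With that share as a covariate, the log2 difference of ZT19 from ZT1 went from -2.28 to 0.33 and that of ZT19 from ZT13 from 0.66 to 3.18 (unadjusted p = 0.00944, adjusted p = 0.218), while that of ZT13 from ZT1 was -2.84 (unadjusted p = 0.00269, adjusted p = 0.512). The fit with keratinocyte and fibroblast scores as covariates went the other way for ZT19. There ZT19 differed from ZT1 by -3.93 (unadjusted p = 0.0335, adjusted p = 0.136, same test). ZT13 differed from ZT1 by -2.91 (unadjusted p = 0.00867, adjusted p = 0.276), so ZT19 lay below ZT13.

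Of the target genes, Id3 was lowest at ZT1. Id3 spans chr4:136143497-136145755 on the plus strand. It had 1902, 1574, 1531, 1127 and 1418 normalized counts at ZT1, and 5746, 2948, 2755, 2032 and 2235 at ZT7. At ZT13 it had 1804, 4613, 2509, 4135 and 3090, and at ZT19 2283, 2001, 2933, 2306 and 5565. Every library of ZT7 and of ZT19 was above every library of ZT1, whereas ZT13 replicate 1 fell within the range of ZT1. Id3 exceeded its ZT1 level by 1.06 ± 0.36 at ZT7, by 1.10 ± 0.36 at ZT13 and by 0.999 ± 0.36 at ZT19 on the log2 scale (SE, edgeR's quasi-likelihood test, Benjamini-Hochberg adjusted p = 0.775, 0.582 and 0.117). Among the 4 time points its unadjusted p was 0.0220 and its adjusted p 0.2515, and DESeq2 gave an adjusted p of 0.0392. The rhythm had an amplitude of 0.55 with a peak at 12.8 h (unadjusted p = 0.0455, adjusted p = 0.541).

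The libraries of Id3 did not overlap between ZT1 and ZT7, as was so for 1.75% of all genes, nor between ZT1 and ZT19, as for 8.56%. The summed fibroblast markers did not overlap between ZT1 and ZT7 either, with ZT7 lower. Between ZT1 and ZT13 none of the 10 was without overlap, beside 1.47% of all genes. Without the 5 libraries with a high share on genes, Id3 exceeded its ZT1 level by 1.06 at ZT7, 1.09 at ZT13 and 0.82 at ZT19 (unadjusted p = 0.0118, 0.00962 and 0.0938, edgeR's quasi-likelihood test), and the unadjusted p among the time points was 0.0384. With that share as a covariate, the difference at ZT19 was 0.705 (unadjusted p = 0.113). With keratinocyte and fibroblast scores as covariates the differences were 0.74, 0.79 and 0.88 (unadjusted p = 0.106, 0.0828 and 0.0454), and the unadjusted p among the time points was 0.0833. With the length offset they were 1.37, 1.78 and 1.77 (unadjusted p = 0.0275, 0.00577 and 0.00589). Over the 20 libraries, r of Id3 with the fibroblast score was -0.547 (rho = -0.541, permutation p = 0.0118 and 0.015, adjusted over 30 relations 0.0569 and 0.0968), -0.432 within time points, and -0.474 once the 2 libraries with the most distant scores were left out.

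Id1 and Id2, which encode close relatives of Id3, had no low point at ZT1. Id1 spans chr2:152736251-152737410 on the plus strand, and its normalized counts were 1268, 1263, 1083, 913 and 1305 at ZT1 and 1886, 1141, 707, 747 and 984 at ZT7. They were 723, 1711, 581, 1108 and 730.2 at ZT13 and 806, 773, 1152, 2476 and 3709 at ZT19. ZT1 was narrow, and ZT19 held both the highest library of all and others near the values of ZT13. ZT19 exceeded ZT13 by 0.88 ± 0.41 (log2, SE, edgeR's quasi-likelihood test, unadjusted p = 0.0396, Benjamini-Hochberg adjusted p = 0.233), and by 0.42 without ZT19 replicate 5. Id2, at chr12:25093799-25097140 on the minus strand, had means of 1453 ± 341 (SD, n = 5), 1489 ± 666, 1093 ± 500.0 and 1657 ± 1093 in the order of the 4 time points, and ZT19 exceeded ZT13 by 0.60 ± 0.39 (adjusted p = 0.4085, same test).

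**Figure D2:**
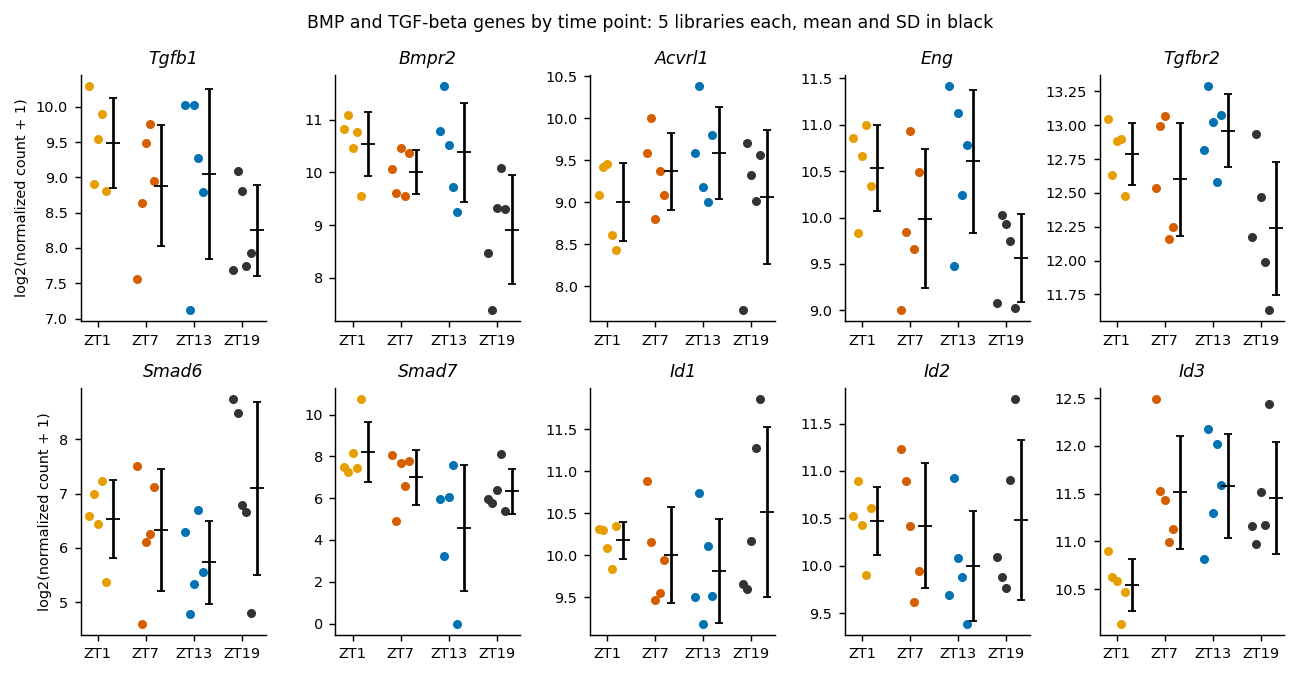
log2(normalized count + 1) of each gene in the 5 libraries of ZT1, ZT7, ZT13 and ZT19 (points), with the mean and SD in black. The 5 libraries of ZT1 lay under all those of ZT7 and ZT19 for Id3, between 1127 and 1902 normalized counts, and Smad7 had a count of 0 in ZT13 replicate 5.

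The 6 pairs of time points gave 60 differences over the 10 genes, of which 0 passed after adjustment (edgeR's quasi-likelihood test, Benjamini-Hochberg), 13 had an unadjusted p under 0.05, and 6 passed with DESeq2. The 6 were Id3 between ZT13 and ZT1 (where DESeq2 called 0.624% of all genes it gave an adjusted p), Id3 and Bmpr2 between ZT19 and ZT1 (10.4%), and Bmpr2, Eng and Tgfbr2 between ZT19 and ZT13 (9.26%). With keratinocyte and fibroblast scores as covariates 5 passed in edgeR, those of Tgfb1 and Bmpr2 between ZT19 and ZT1 (5.84% of all genes), Tgfb1 between ZT19 and ZT7 (9.04%), and Tgfb1 and Eng between ZT19 and ZT13 (4.28%). Without covariates, edgeR's share past the adjusted threshold, over all genes, came to 0.00521% between ZT7 and ZT1, 0.0208% between ZT13 and ZT1, 0.0156% between ZT19 and ZT1, 0.0937% between ZT13 and ZT7, 0.0156% between ZT19 and ZT7 and 0.588% between ZT19 and ZT13. Most of the 13 involved ZT19, the time point with 3 of the 5 libraries with a high share of reads on genes. Between ZT19 and ZT13 they were those of Bmpr2, Eng, Tgfb1, Smad6 and Id1, 5 of 10 beside 19.2% of all genes. Between ZT19 and ZT1 they were those of Bmpr2, Eng, Tgfb1, Smad7 and Id3, 5 of 10 beside 21.6%. Between ZT13 and ZT1, Smad7 and Id3 were below 0.05, 2 of 10 beside 5.37% of genes, and between ZT7 and ZT1 Id3 alone, 1 of 10 beside 4.97%. No member was below 0.05 between ZT13 and ZT7 or between ZT19 and ZT7, where 2.59% and 19.7% of genes were. These comparisons share the libraries of ZT19 or ZT1. The median absolute log2 difference of the 10 genes was 0.77 between ZT19 and ZT13 and 0.98 between ZT19 and ZT1, beside 0.75 and 0.81 over all genes. In the remaining pairs it was under that of all genes. It was 0.414 beside 0.493 between ZT7 and ZT1, and 0.338 beside 0.464 between ZT13 and ZT1. Between ZT13 and ZT7 it was 0.388 beside 0.389, and between ZT19 and ZT7 0.585 beside 0.721.

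**Figure D3:**
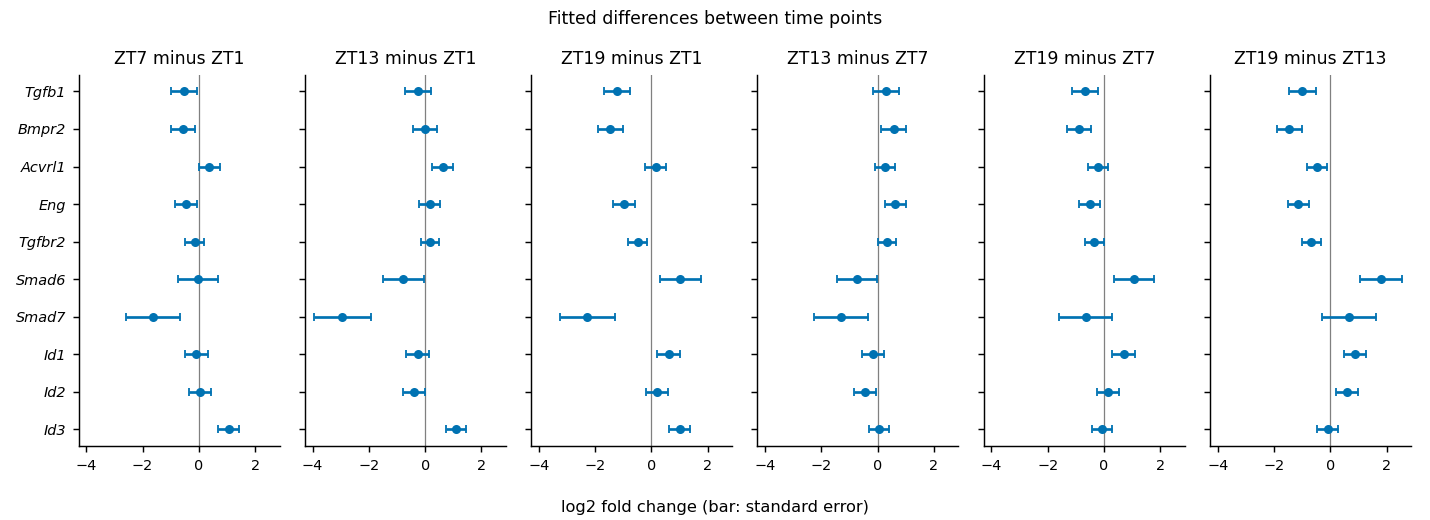
Log2 fold change of each gene, later minus earlier time point, with its standard error, for the 6 pairs of time points. Between ZT19 and ZT13, Tgfb1, Bmpr2, Acvrl1, Eng, Tgfbr2 and Id3 (-0.10) lie left of 0 and Smad6, Smad7, Id1 and Id2 right of 0, and the widest bars belong to Smad7 (SE 1.01 between ZT13 and ZT1).

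Across the 20 libraries, members moved together as 2 sets of 2. All 45 pairs of members were compared, and 4 had an adjusted p under 0.05 by permutation test. The share of pairs over all genes that would pass was not computed, so the 4 are not set against it. Of all genes, 3.18% had an r over 0.7 with Id1 and 1.39% with Eng. Id1 and Id2 rose and fell together (Pearson's r = 0.829, adjusted permutation p = 0.00045, Spearman's rho = 0.765, adjusted permutation p = 0.00427), and so did Eng and Tgfb1 (r = 0.819, adjusted permutation p = 0.000675, rho = 0.794, adjusted permutation p = 0.0036). Eng and Tgfb1 ran against Id1 by Pearson's r, though not by rho after adjustment: Tgfb1 with Id1 gave r = -0.633 (adjusted permutation p = 0.0351, rho = -0.58, adjusted p = 0.0604) and Eng with Id1 r = -0.619 (adjusted permutation p = 0.0351, rho = -0.633, adjusted p = 0.0517). Unadjusted, the 4 Pearson permutation p-values were 1e-05 (the smallest that 100000 permutations can give), 3e-05, 0.00245 and 0.00312, and those of rho 0.00019, 8e-05, 0.00805 and 0.00345. Against Id2 neither passed: r was -0.557 for Tgfb1 and -0.555 for Eng (adjusted permutation p = 0.0642 for each), and rho -0.511 and -0.513 (adjusted permutation p = 0.114 for each).

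The 4 relations were also seen within time points and without the most extreme libraries. Within time points r was 0.841 for Id1 and Id2, 0.796 for Eng and Tgfb1, -0.652 for Tgfb1 and Id1 and -0.601 for Eng and Id1, with the same sign at each of the 4 time points. Without the 2 libraries farthest from the median of the first gene named, r was 0.739, 0.773, -0.697 and -0.553. Id3 followed Id1 within time points (r = 0.769) more than over all libraries (r = 0.462, rho = 0.248, permutation p = 0.0397 and 0.29, adjusted p = 0.137 and 0.483). All values come from the same libraries and the same scaling.

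**Figure D4:**
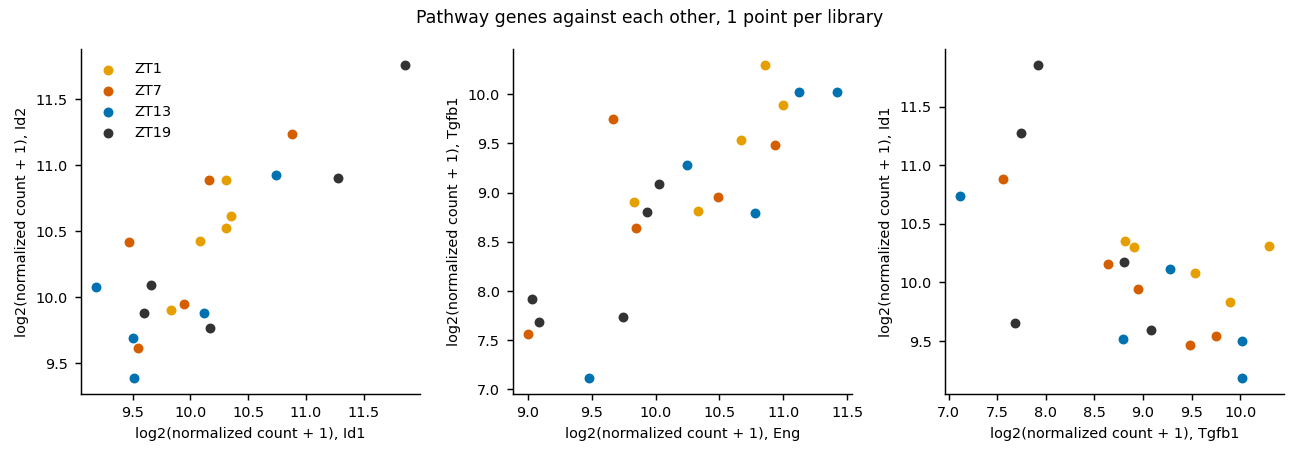
log2(normalized count + 1) of Id2 against Id1, Tgfb1 against Eng, and Id1 against Tgfb1, with 1 point per library coloured by time point. The points rise in the first 2 panels (r = 0.829 and 0.819) and fall in the last (r = -0.633).

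The 4 libraries with low fibroblast markers lay toward one end of both sets. Their fibroblast score, the mean centred log2 level of the 10 markers, was at or under -1.73, and that of the other 16 at or over -0.62. In these 4, Tgfb1 ranged from 138 to 397 normalized counts with a median of 200.4, against 205 to 1257 with a median of 581.5 in the others. Eng ranged from 511 to 919, against 521 to 2740. The Id genes lay on the other side: Id2 ranged from 1896 to 2409 with a median of 1932, against 670.2 to 3464 with a median of 1033, and Id1 from 1141 to 2476, against 581 to 3709. The 4 libraries come from ZT7, ZT13 and ZT19. Without them, r was 0.808 for Id1 and Id2, 0.794 for Eng and Tgfb1, -0.456 for Tgfb1 and Id1, -0.528 for Eng and Id1, -0.339 for Tgfb1 and Id2 and -0.395 for Eng and Id2. With keratinocyte and fibroblast scores as covariates, Tgfb1 passed the test among the 4 time points (adjusted p = 0.0394, edgeR, quasi-likelihood test, Benjamini-Hochberg adjustment), as did 5.02% of all genes in that fit. It did not pass by the same test when the covariate was the gene share of the reads (unadjusted p = 0.452, adjusted p = 0.834). There the log2 difference of Tgfb1 between ZT19 and ZT1 went from -1.23 to -0.63 (unadjusted p = 0.256, same test).

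**Figure D5:**
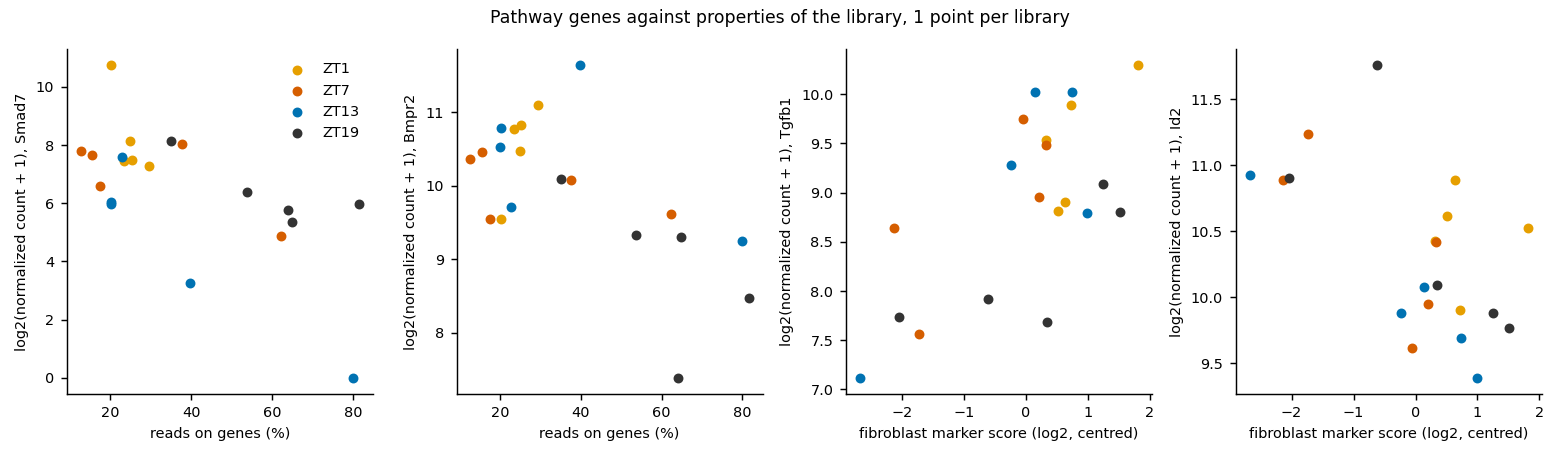
log2(normalized count + 1) of Smad7 and Bmpr2 against the percentage of reads on genes, and of Tgfb1 and Id2 against the fibroblast marker score (log2, centred), with 1 point per library. The 5 libraries over 60% lie at or under 61.8 normalized counts of Smad7 and 783 of Bmpr2, and the 4 libraries with a fibroblast score at or under -1.73 have 138 to 397 normalized counts of Tgfb1.

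Of the 30 relations of the 10 genes with the share of reads on genes and the 2 marker scores, 4 passed after adjustment by Pearson's r and 0 by rho (permutation test): that of Bmpr2 given above and 3 more. An absolute r of 0.592 or more, the weakest of the 4, was reached by 2 of the 10 with the share on genes, beside 39.1% of all genes tested, by 2 with the fibroblast score, beside 3.40%, and by 0 with the keratinocyte score, beside 2.64%. The r of Tgfb1 with the fibroblast score was 0.675 (permutation p = 0.00123, adjusted p = 0.0292, rho = 0.483, permutation p = 0.0332, adjusted p = 0.117), and 0.607 without the 2 most distant libraries. Id2 went the other way with that score (r = -0.592, permutation p = 0.00558, adjusted p = 0.0418, rho = -0.561, permutation p = 0.0102, adjusted p = 0.0968, and r = -0.542 without the 2). Smad7 fell with the share on genes (r = -0.635, permutation p = 0.00195, adjusted p = 0.0292, rho = -0.594, permutation p = 0.00664, adjusted p = 0.0968, and r = -0.516 without the 2). Within time points these 3 values of r were 0.750, -0.755 and -0.784. Without the 4 libraries with low fibroblast markers, r with the score was 0.290 for Tgfb1 and -0.335 for Id2, and without the 5 with a high share on genes r of Smad7 was -0.302. The largest rho of the 30 in absolute value was that of Tgfb1 with the share on genes, -0.641 (permutation p = 0.00334, adjusted p = 0.0968). Its r was -0.534 (permutation p = 0.0155, adjusted p = 0.0569), -0.383 within time points and -0.578 without the 5 libraries.

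The genes whose log2 level was most like that of a member over the 20 libraries were looked up for 3 of them, as a description. For Id1 they were Rpl19, a ribosomal protein gene, Spcs1 and Sf3b6 (r = 0.895, 0.895 and 0.893), and 3.18% of all genes had an r over 0.7 with Id1. Those of Eng were 2310003H01Rik, Tnxb and Pcdhgb1 (r = 0.874, 0.873 and 0.859), with 1.39% of genes over 0.7. Smad6 had few such genes, led by Fxr2, Axl and Ncoa1 (r = 0.774, 0.711 and 0.706, 0.0156% of genes over 0.7).

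A further 61 genes of the pathway, listed by role, were all tested, and 0 of them passed for the 4 time points or for a rhythm (edgeR, quasi-likelihood test, Benjamini-Hochberg adjustment), while DESeq2 called 1, Fst, in each. At an unadjusted p under 0.05, 5 of the 61 differed among the time points, beside 15.7% of all genes: 1 of 13 ligands (Bmp10), 1 of 10 receptors (Bmpr1a), 0 of 6 Smads, 3 of 21 inhibitors and modulators (Fst, Pmepa1 and Smurf2) and 0 of 11 targets. For a rhythm there were 4, Bmpr1a, Fst, Pmepa1 and Tgif1, beside 9.23%.

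Fst, the gene of follistatin, which traps activin and some BMPs, had the smallest p. Its normalized counts were 118, 109, 104, 149 and 1686 at ZT1, and 133, 68.0, 148, 187 and 47.6 at ZT7. They were 69.5, 81.7, 23.8, 28.8 and 37.1 at ZT13 and 207, 168, 131, 293 and 324 at ZT19. All 5 libraries of ZT13 were below all those of ZT1 and of ZT19. Of all genes tested, 1.47% did not overlap between ZT13 and ZT1 and 2.48% between ZT19 and ZT13. ZT1 replicate 5 was high for Fst as it was for Smad7. ZT13 was below ZT1 by -3.16 ± 0.74 and ZT19 above ZT13 by 2.22 ± 0.71 (log2, SE, edgeR's quasi-likelihood test, Benjamini-Hochberg adjusted p = 0.238 and 0.0975). Both passed with DESeq2 (adjusted p = 0.00351 and 0.0332), and with keratinocyte and fibroblast scores as covariates the second did (4.54, adjusted p = 0.0448). Among the time points the adjusted p was 0.104 (unadjusted p = 0.0011), and without ZT1 replicate 5 the unadjusted p was 0.0106 and the fall to ZT13 -1.32.

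Pmepa1, a TGF-β-induced inhibitor of Smad activation, was highest at ZT1, with 892 ± 491 normalized counts (SD, n = 5), against 296 ± 126 at ZT7, 353 ± 102 at ZT13 and 430.0 ± 220.0 at ZT19 (unadjusted p = 0.00275, adjusted p = 0.145, edgeR's quasi-likelihood test, Benjamini-Hochberg). With the gene share of the reads as a covariate, the log2 difference of Pmepa1 between ZT19 and ZT1 went from -1.05 to -0.46, and that between ZT7 and ZT1 was -1.59 with and without it. With keratinocyte and fibroblast scores as covariates Pmepa1 passed among the time points (adjusted p = 0.0385, a fit in which 5.02% of all genes did). The type I BMP receptor Bmpr1a was also highest at ZT1, 897 ± 321 against 303 ± 218 at ZT13. This log2 difference, ZT13 minus ZT1, was -1.57 (unadjusted p = 0.00379, edgeR's quasi-likelihood test), and -0.49 with keratinocyte and fibroblast scores as covariates (unadjusted p = 0.350). In that fit ZT7 minus ZT1 went from -0.82 to -1.20 and ZT19 minus ZT1 from -0.87 to -1.53 (unadjusted p = 0.0294 and 0.00371). Smurf2, a ubiquitin ligase that acts on Smads and receptors, went from 943 ± 139 at ZT1 to 499 ± 118 at ZT19, a log2 difference of -0.92 (unadjusted p = 0.00795, same test). With the length offset that difference was -0.06, and the unadjusted p among the time points rose from 0.0352 to 0.598. Tgif1, a Smad co-repressor, had 1079 ± 391 at ZT19 and 595 ± 155 at ZT7. Bmp10, a ligand of ACVRL1, had counts between 2 and 21 in the 5 libraries of ZT1 and 0 in all 5 of ZT19, which allows between 8.33e-06% and 2.78e-05% of the reads on genes (3 counts per library, counting error only). It was counted at ZT7 in replicate 4 only, and at ZT13 in replicates 1, 3 and 4. The libraries of ZT19 detected 12477 to 18768 genes and those of ZT1 19055 to 21525. No fold is given for Bmp10.

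By level per kb of exon, the leading genes of each role were Tgfb3 among ligands (365 normalized counts per kb), Tgfbr3 among receptors (325.5), Smad1 among Smads (633.5), Ltbp4, which binds latent TGF-β, among modulators (3385), and Hes1 among targets (4207). The mean of Hes1 was carried by a few libraries: its median was 890.5 per kb, and Tgfbi, with a mean of 2170 and a median of 1877, was higher in 12 of 20 libraries (Tgfbi was named after its values were seen). None passed the test among the 4 time points (adjusted p between 0.467 and 0.853, edgeR's quasi-likelihood test, Benjamini-Hochberg) except Hes1 in the fit with keratinocyte and fibroblast scores as covariates (0.0214, a fit in which 5.02% of all genes passed, and 1.02% for a rhythm). Hes1 varied most, from 974 to 40247 normalized counts, with a mean of 15555 ± 17925 at ZT1.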

How the data were processed

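RNA of sorted dermal LECs was sequenced in 20 libraries, single-end, from cDNA amplified without molecular identifiers. The authors aligned reads to mm10 with STAR, counted them per gene with HTSeq and deposited raw counts per gene symbol. Their later steps used DESeq2 (Galaxy version 2.11.40.6). The strand setting was not given in the sources used here, nor was any batch. Rows for reads on no gene (11.8% to 32.9% of all reads), ambiguous (0.0783% to 1.3%), unaligned (14.3% to 44.9%) or multiply aligned (15.4% to 52.7%) were left out of library sizes.

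The counts of all 20 libraries were fitted together with edgeR 4.0.16 in R 4.3.3 (TMM, filterByExpr, quasi-likelihood test, Benjamini-Hochberg adjustment over 19209 genes), among the 4 time points, between the 6 pairs and for a cosine of 24 h. Fold changes are log2. Normalized counts are counts over effective library size, and log2 values use a pseudocount of 1. Correlations used 100000 permutations, two-sided. Exon lengths and positions came from GENCODE M21, with a length for 98.5% of symbols. Alternatives were DESeq2 1.42.0, other normalizations, filters and dispersion fits, covariates, a replicate block, fits of single pairs and each library left out, and the length offset and the fits without high-share libraries were added after seeing the data.

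The members and lists were chosen with earlier results of these data known. Named were all 10 members, of the 61 other genes the 6 with the smallest unadjusted p and the most abundant per kb of each role, and the 3 genes most like Id1, Smad6 and Eng.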

Additional observations from a re-analysis of the deposited data

Results flagged for a closer look

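In groups of 5 libraries, the gap from the highest or lowest library to its neighbour was compared with the range of the group on the log2 scale, and 4 of 83 groups with any spread, over the 10 members and the 11 other genes named, had a ratio over 0.71, where chance gives about 1 in 20. For Smad7 at ZT1, replicate 5 was far above the others (ratio 0.75), the 1 such case in the 40 groups of members. The same library was high for Fst at ZT1 (0.872). Pmepa1 at ZT19 was highest in replicate 4 (0.789), and Bmp10 at ZT7 had counts in replicate 4 only (a ratio of 1). Without ZT1 replicate 5, the log2 difference of Smad7 between ZT1 and ZT13 was 1.60 in place of 2.94.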

How the results depend on the processing

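The differences between 2 time points were recomputed under 32 alternatives, 20 of which left out 1 library. The tests among the 4 time points and for a rhythm were recomputed under all of these except the fits of single pairs. Levels and correlations were recomputed only where stated. The difference between the highest and the lowest time point kept its sign in all 320 refits of the 10 members, which the choice of those time points favours, and moved by over 1.5 times with the length offset (Bmpr2 0.43, Tgfb1 0.57, Tgfbr2 0.33, Acvrl1 1.20, Id3 1.78), the marker scores (Acvrl1 0.21, Eng 1.90), without the high-share libraries (Bmpr2 0.85, Smad6 0.84, Id2 0.25) or without ZT19 replicate 5 (Id1 0.42, Id2 0.14) or ZT1 replicate 5 (Smad7 1.60), among others. The number of members differing among the 4 time points went from 0 to 1 with DESeq2 (Id3) and with keratinocyte and fibroblast scores as covariates (Tgfb1, adjusted p = 0.0394, with a difference of 1.55 between ZT1 and ZT19 whose own adjusted p was 0.0370), and the number of the 60 differences between 2 time points from 0 to 6 and to 5, and to between 0 and 1 with a library left out (1, Bmpr2, without ZT13 replicate 5 and without ZT19 replicate 4). The other pathway genes that passed were 1 with DESeq2 and 3 with these scores among the time points, and 1 and 2 for a rhythm. The cause was not tested. A rhythm was found for 0 members under each alternative in which it was tested.

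Over all genes, 81 differed among the time points, against 52 with upper-quartile normalization, 569 with DESeq2, 965 with the marker scores, 49 with the gene share of the reads as a covariate, 21 without the 5 libraries with a high share and 30 to 178 with a library left out (30 without ZT13 replicate 4, 178 without ZT19 replicate 4). Genes with a rhythm went from 6 to 75 with DESeq2 and 195 with the scores, and those between ZT19 and ZT13 from 113 to 1775 and 822. Same-numbered replicates came from different mice, and their deviations correlated between -0.541 and 0.343, so the numbers were not taken as pairs. With the replicate block, 0 members passed among the time points, 0 for a rhythm and 0 between 2 time points, and 31 genes in all passed among the time points. Other normalizations moved the median of all genes by up to -0.283 (log2, ZT19 minus ZT7). The spread between libraries (a biological coefficient of variation of 1) and the low counts of Smad6 and Smad7 limit what differences these 20 libraries can show.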
